A study of Mus musculus with 16 samples.

Results

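The tumours compared here were the 4 with the highest and the 4 with the lowest basal keratin RNA among 12 epithelial mammary tumours of STAT5 transgenic mice. Gene expression had been measured on 16 arrays, 13 of mammary tumours and 3 of normal mammary gland, each from mice of the FVB/N background. The tumours came from mice with 1 of 2 transgenes: STAT5Δ750, a STAT5 that lacks part of its C-terminus (6 tumours), and STAT5ca, a constitutively active STAT5 (7 tumours). A tumour entered if its Krt8 signal, which marks luminal epithelium, was above 100, and this left out 1 STAT5ca tumour, STAT5ca_177, with a Krt8 signal of 25.3. Each of the other 12 was scored by the mean of log2(signal + 8) over Krt5, Krt14 and Krt17. The members were thus chosen by measured keratin signals: the top 4 by score form the basal keratin high group and the bottom 4 the basal keratin low group, with both transgenes together. The high group holds 3 STAT5Δ750 tumours and 1 STAT5ca tumour, and the low group holds 2 of each (two-sided Fisher's exact test, p = 1). With groups this small, even the most uneven split possible could not give a low p in that test. It therefore cannot decide whether the transgenes are balanced between the groups. The 4 tumours between the high and low groups, 3 STAT5ca and 1 STAT5Δ750, are called the middle group. The promoter that drives each transgene, tumour histology, and the age and parity of the mice are not stated in the labels used here. Each array is labelled as a sample of its own, and nothing says whether some tumours came from 1 mouse, so that p-values measure the spread between these arrays.

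The mammary duct has an inner luminal layer, marked by keratins 8, 18 and 19, and an outer basal or myoepithelial layer, marked by keratins 5, 14 and 17. The transcription factor p63, encoded by Trp63, maintains basal cells of stratified and glandular epithelia and binds the enhancers and promoters of many of their genes. Basal cells are fixed to the basement membrane by hemidesmosomes and laminin-332, and in the gland they contract through smooth muscle actin to eject milk. Keratins 6 and 16 are low in resting epithelium and high in wounded, hyperproliferative or squamous epithelium. STAT5, activated by prolactin, drives the milk protein genes of luminal alveolar cells.

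Promoter sequences from RefSeq (build GRCm38.p6), running from 250 bases before to 50 bases after the annotated start, were read for the genes that the comparison turns on. Of the 3 score keratins and the stress keratins Krt6a, Krt6b and Krt16, 2 had an entry, and among the 24 genes that lead the comparison below 19 had one. The promoter of Krt5, a score gene and a known p63 target, is shown because it holds 1 match to the p53 family half-site, the motif that p63 also binds. Fhl2 is shown as the gene among the leading higher ones whose promoter holds a match, and Mmp10 as the leading higher gene with the smallest p-value, whose promoter holds the AP-1 motif TGANTCA. Both strands were searched. Capitals mark the half-site in Krt5 and Fhl2 and the AP-1 motif in Mmp10.
Krt5 (chr15:101712856-101713155, minus strand): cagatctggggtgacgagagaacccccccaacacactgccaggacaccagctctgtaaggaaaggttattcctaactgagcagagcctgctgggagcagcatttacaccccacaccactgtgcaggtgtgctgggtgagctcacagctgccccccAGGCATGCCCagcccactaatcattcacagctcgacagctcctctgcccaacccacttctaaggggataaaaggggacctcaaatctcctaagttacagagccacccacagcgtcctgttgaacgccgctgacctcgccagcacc
Fhl2 (chr1:43196712-43197011, minus strand, the first of its 2 listed promoters): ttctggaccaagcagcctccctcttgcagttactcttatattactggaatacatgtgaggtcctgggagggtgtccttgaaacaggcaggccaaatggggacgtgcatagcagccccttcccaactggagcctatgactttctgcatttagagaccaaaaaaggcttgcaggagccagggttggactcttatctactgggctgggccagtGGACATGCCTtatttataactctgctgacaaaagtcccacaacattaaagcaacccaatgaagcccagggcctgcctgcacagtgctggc
Mmp10 (chr9:7502092-7502391, plus strand): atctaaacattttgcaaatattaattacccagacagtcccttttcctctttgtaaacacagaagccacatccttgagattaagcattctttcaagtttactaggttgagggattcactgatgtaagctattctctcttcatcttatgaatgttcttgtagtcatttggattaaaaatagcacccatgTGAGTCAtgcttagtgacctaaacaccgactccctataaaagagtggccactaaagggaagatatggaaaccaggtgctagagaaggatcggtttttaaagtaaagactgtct
The capitals begin at position -95 from the start in Krt5, at -40 in Fhl2 and at -63 in Mmp10. The half-site was found in 8.36% of 32851 promoters in the table and TGANTCA in 7.81%. The half-site occurred in 2 of the 19 leading genes with an entry, Fhl2 and, in its second promoter, Creb3l3. Besides Mmp10, TGANTCA occurred in the leading higher gene Met and in the leading lower genes Plpp7, Cst10 and, in its second promoter, Creb3l3. Krt14, with an entry of its own, held none in this window.

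The score ran over a wide range, and both keratin groups were set by it, so the values of the 3 score genes are given as a description. In score order, the high tumours are STAT5Δ750_160, STAT5Δ750_174, STAT5ca_159 and STAT5Δ750_165, with scores of 10.001, 8.61, 8.28 and 7.75. The low tumours are STAT5ca_171, STAT5Δ750_254, STAT5Δ750_178 and STAT5ca_169, with scores of 5.99, 5.94, 5.28 and 3.69. Every list of 4 values below keeps these orders. The middle tumours are STAT5ca_123, STAT5ca_124, STAT5ca_213 and STAT5Δ750_92, with 7.55, 7.47, 7.40 and 6.68. The last array inside the high group, at 7.75, stood close to the first outside it, at 7.55, while the low group began at 5.99 below a middle array at 6.68. When the arrays were first scaled to a common median, STAT5ca_123 took the place of STAT5Δ750_165 in the high group.

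Krt14, the partner of keratin 5 in basal filaments, had deposited signals of 2222.4, 854.1, 638.7 and 665.7 in the high tumours and 195.2, 77.3, 43.6 and 1.3 in the low tumours. Krt5 read 648.2, 457, 152.6 and 132.9 in the high tumours and 25.8, 48.2, 43.3 and 17.5 in the low tumours. Krt17, a basal keratin that is also induced on injury, read 726.7, 140.8, 281 and 97.7 in the high tumours and 29.4, 39.9, 14.1 and 1.0 in the low tumours. STAT5Δ750_160 had the highest signal of each of the 3 genes, and STAT5ca_169 the lowest. The probe set used for Krt14 is of a type that can share probes with related sequences, so part of its signal may be that of other keratins. Krt8 itself, which only admitted the tumours, was 3710.8 to 5158 in the high tumours and 3836.1 to 5375.9 in the low tumours, against 708.1 to 1879.6 in the glands. The plot of the score genes by array shows these levels with those of the other arrays.

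**Figure D1:**
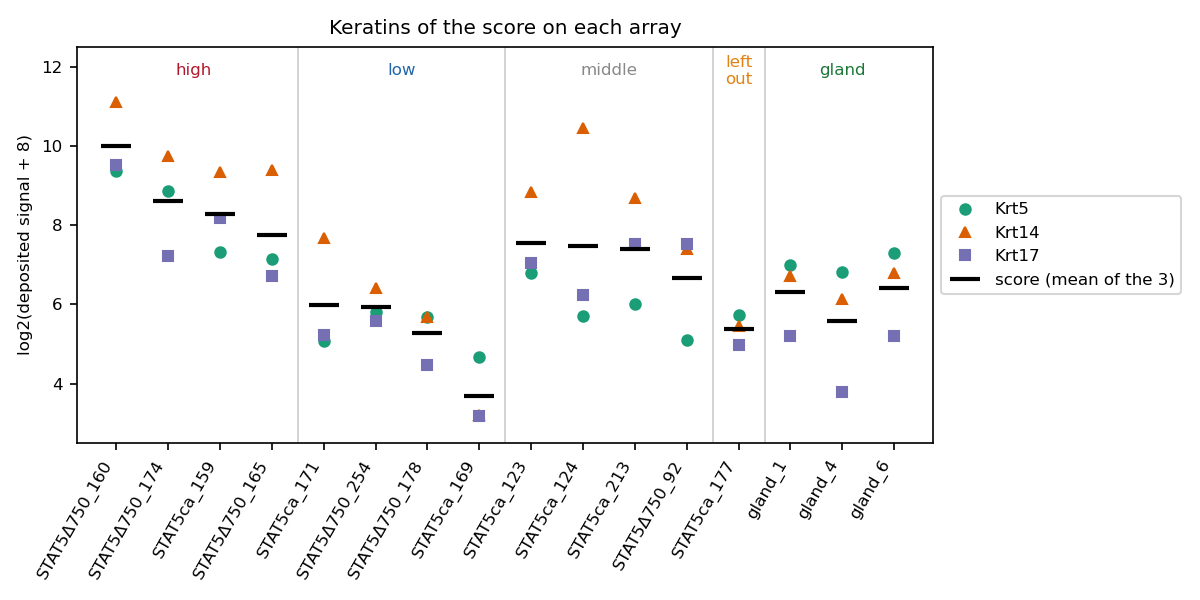
Level of the 3 score keratins, as log2 of the deposited signal plus 8 (vertical axis), on each of the 16 arrays (horizontal axis), ordered by score within groups; the black dash is their mean, the score. The high tumours score 10.001 to 7.75 and the low tumours 5.99 to 3.69, while the 3 glands lie between 5.58 and 6.42.

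Of 9257 genes tested in the high against the low tumours, 0 passed an adjusted p of 0.05 (0%), by limma with Benjamini-Hochberg adjustment, and the smallest adjusted p was 0.285. At an unadjusted p under 0.05, 229 genes were higher (2.47%) and 154 lower (1.66%) in the high tumours. All 4 high values lay above all 4 low values for 120 genes (1.3%) and below them for 71 genes (0.767%). The counts given for each list below are to be read beside these shares of all genes. The 5th and 95th percentiles of the difference over all genes were -0.71 and 0.78, with a median of 0.01. Values of genes below are log2(signal + 8) after scaling each array to a common median, on which a signal of 0 would read 3, and a difference is the mean of the high tumours minus that of the low tumours with the standard error of the fit. No gene is called changed, and the members of each list are read as levels and differences. The groups were formed from 3 keratins on the same arrays, so the p-values rank genes by how they go with basal keratin level and test no treatment. The 16 arrays had median deposited signals of 57.3 to 90.7, and the number of arrays limits the precision.

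Some arrays stood apart from their groups. The beta-actin 3'/5' control ratio, which grows as RNA is degraded, was 1.94 ± 0.60 in the high and 1.93 ± 0.51 in the low tumours (SD, n = 4 each; two-sided exact permutation test, p = 1). It was 4.46 ± 0.97 in the middle tumours, so comparisons with that group carry this gap. The Gapdh ratio was 0.830 ± 0.024 in the high and 0.786 ± 0.021 in the low tumours (p = 0.0571, the same exact test, whose smallest possible p is 0.0286). Among low tumours, STAT5Δ750_254 had the highest mean of the B cell list and of exocrine gland genes, and STAT5Δ750_178 that of the muscle list. Among high tumours, STAT5Δ750_174 carried hair follicle genes. In bulk tumour RNA, fewer cells of a type and less RNA per cell cannot be told apart.

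The keratins outside the score that mark activated or squamous epithelium had the largest median difference of the 38 lists. Of 4 keratins of this list tested, 3 were higher at an unadjusted p under 0.05, against 2.47% of all genes. The same number had no overlap between groups, against 1.3% of all genes. The median difference was 3.59, beside 0.01 over all genes. Krt6a, a partner of keratin 16, read 11.78, 9.82, 8.65 and 9.5 in the high tumours and 7.16, 5.36, 7.09 and 4.10 in the low tumours, a difference of 4.01 ± 1.11. Krt6b, its close copy, read 10.67, 9.24, 7.21 and 7.64 in the high tumours and 4.0, 4.10, 5.27 and 3.12 in the low tumours, a difference of 4.57 ± 0.90. Krt16 read 8.82, 8.32, 6.08 and 6.18 in the high tumours and 3.97, 4.54, 4.28 and 3.95 in the low tumours, a difference of 3.16 ± 0.87. For each of the 3 the lowest high tumour lay above the highest low tumour, and STAT5Δ750_160 was the highest array. Krt6b and Krt16 had signals above 35.4, the level of the filter, on 4 high and 2 middle arrays and on no other. A gene needed 3 such arrays to be tested, so Krt6b and Krt16 were tested only through the high tumours. The limma adjusted p was 0.995 for Krt6a, 0.668 for Krt6b and 0.995 for Krt16. Krt6a and Krt6b are nearly identical and Krt16 resembles Krt14 and Krt17, so their probe sets may share signal with one another and with the score genes. Krt23, a keratin of other simple epithelia, overlapped between the groups, with a difference of 1.35 ± 1.01. Krt15 and Krt75 of the list were not tested: deposited signals reached 99 and 21.2 in tumours and passed the filter on too few arrays.

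In the glands Krt6a lay between 4.13 and 4.56, Krt6b between 4.06 and 4.19 and Krt16 between 3.65 and 3.76, below all high tumours for each gene. STAT5ca_169, the tumour with the lowest score, lay below the glands for Krt6a and Krt6b. The middle tumours ran from 3.87 to 9.52 for Krt6a, with STAT5ca_123 as the highest of them. Krt5 differed from this, since its gland signals of 104.2 to 148.2 lay near those of the lowest high tumours.

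Trp63 was the leading transcription factor. It read 7.14, 7.93, 5.23 and 7.40 in the high tumours and 4.70, 4.76, 4.32 and 4.65 in the low tumours, a difference of 2.32 ± 0.47 (limma, unadjusted p = 0.000367, adjusted p = 0.679). The 3 STAT5Δ750 tumours of the high group stood at 7.14 or more, whereas STAT5ca_159 stood at 5.23, closer to the low tumours than to the others of its group. The glands averaged 6.29, above every low tumour and below the 3 STAT5Δ750 high tumours. The high minus low difference within STAT5Δ750 tumours was 2.95 and within STAT5ca tumours 0.56. The high group holds 1 STAT5ca tumour, so transgene and single tumour cannot be told apart there. When STAT5ca_159 was left out of the high group, Trp63 stood 2.88 apart with a limma adjusted p of 0.00619 and was the single gene that passed. That setting drops the lowest Trp63 array of the high group and its only STAT5ca tumour. It sets 3 STAT5Δ750 tumours against 2 of each transgene, so transgene and keratin level cannot be told apart in it.

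**Figure D2:**
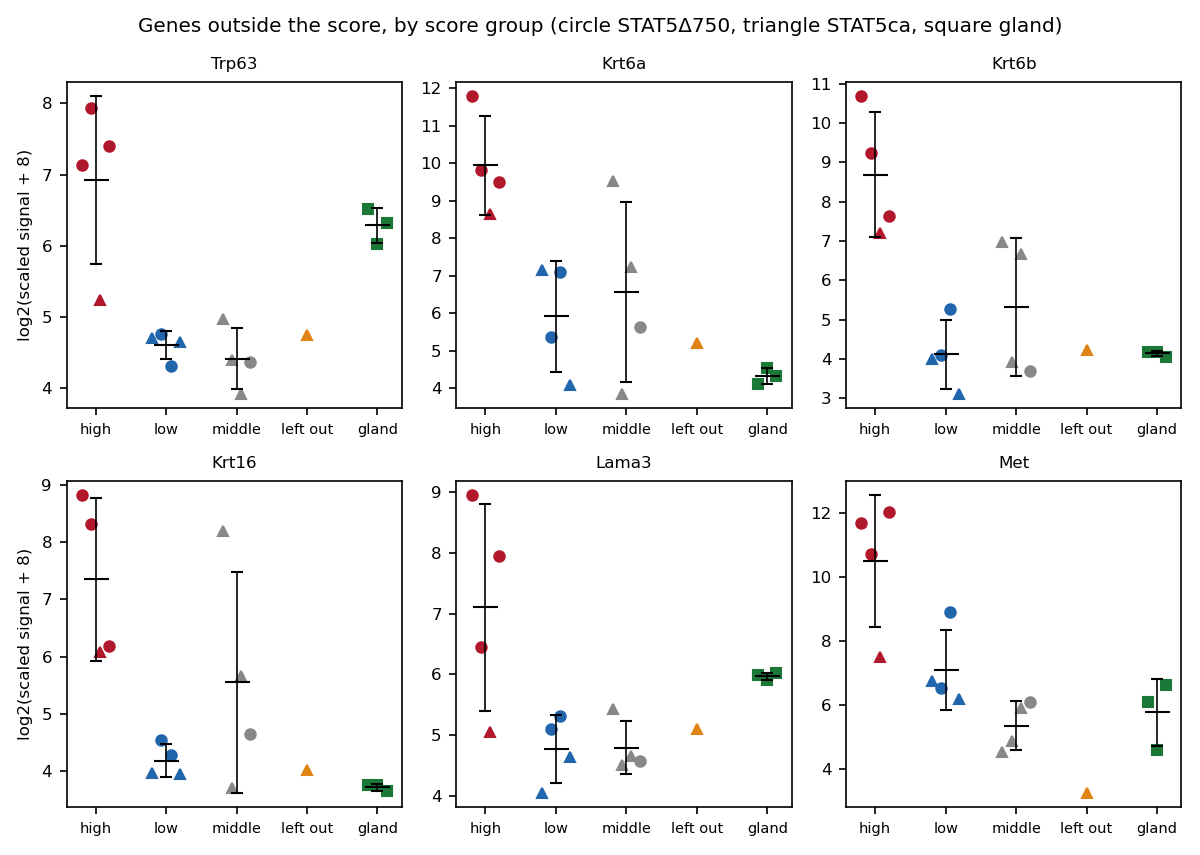
Levels of 6 genes outside the score, as log2 of the scaled signal plus 8 (vertical axes), in the high, low and middle tumours, the tumour left out and the glands; each point is 1 array and the bars are the mean ± SD. Krt6a, Krt6b, Krt16 and Trp63 of the high tumours lie above all low tumours, whereas Lama3 and Met overlap through STAT5ca_159.

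Other basal transcription factors and p63 partners stood less far apart. Of 11 tested, 4 were higher at an unadjusted p under 0.05 and 1, Trp63, had no overlap, with a median of 0.34. Snai2, a repressor found in basal cells, read 5.66, 5.49, 4.73 and 5.43 in the high tumours and 4.45, 4.99, 3.99 and 4.32 in the low tumours, a difference of 0.89 ± 0.28. Tbx3, which acts in mammary bud formation, differed by 0.83 ± 0.33, and Jag2, a Notch ligand, by 0.52 ± 0.22. Sox9, found in luminal progenitors and basal stem cells alike, went the other way with -1.01 ± 0.67 and overlapping groups.

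The myoepithelial contractile genes did not stand apart as the keratins did. None of 13 had groups without overlap, 2 were higher at an unadjusted p under 0.05, and the median was 0.60. Acta2, smooth muscle actin, read 10.499, 9.84, 9.03 and 9.90 in the high tumours and 9.41, 9.76, 9.45 and 8.24 in the low tumours, a difference of 0.60 ± 0.37. Myh11, the smooth muscle myosin heavy chain that defines myoepithelium, read 4.60, 4.74, 4.45 and 4.04 in the high tumours and 5.0, 5.53, 4.69 and 4.23 in the low tumours, a difference of -0.41 ± 0.40. Both groups were thus near the detection floor for Myh11, against a gland mean of 7.48, where vessels and other smooth muscle also express it. Tagln, an actin-binding protein of smooth muscle, differed by 1.20 ± 0.42 and Actg2, smooth muscle gamma actin, by 1.08 ± 0.46. Myl9, a myosin light chain, differed by 0.73 ± 0.38 and Tpm2, a tropomyosin, by 0.83 ± 0.55. These genes are also expressed by fibroblasts and vessels. The fibroblast list had a median of 0.60 and the endothelial list one of -0.01, and the part of those cells in the contractile levels was not tested.

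All 16 genes of hemidesmosomes, laminins and basement membrane adhesion had a difference above 0, with a median of 0.67, and 5 were at an unadjusted p under 0.05. Lama3, the alpha chain of laminin-332, read 8.95, 6.46, 5.05 and 7.94 in the high tumours and 4.05, 5.09, 5.31 and 4.63 in the low tumours, a difference of 2.33 ± 0.67. Lamb3, its beta chain, read 9.87, 7.82, 7.59 and 9.41 in the high tumours and 6.5, 7.68, 8.36 and 5.32 in the low tumours, a difference of 1.71 ± 0.65. STAT5Δ750_160 and STAT5Δ750_165 were the highest arrays for both chains, and the groups overlapped. Col17a1, a transmembrane collagen of the hemidesmosome, read 6.98, 5.49, 4.64 and 4.59 in the high tumours and 4.27, 4.10, 4.41 and 3.34 in the low tumours without overlap, a difference of 1.39 ± 0.46. The collagen IV genes Col4a1 and Col4a2 differed by 1.15 ± 0.42 and 1.28 ± 0.47. Within STAT5Δ750 tumours they differed by 1.74 and 2.02, and within STAT5ca tumours, with 1 high tumour, by 0.07 and -0.30. The integrin genes that pair in hemidesmosomes, Itga6 and Itgb4, differed by 0.08 ± 0.39 and 0.63 ± 0.51. The list median was 0.33 without STAT5Δ750_160 and 1.07 without STAT5ca_159.

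Genes of squamous and cornified epithelium had a median difference of 1.25 over 13 tested of 25 listed. Of these, 3 were higher at an unadjusted p under 0.05, against 2.47% of all genes, and 1 had no overlap, against 1.3%. That gene, S100a14, a calcium-binding protein of squamous epithelia, read 8.51, 8.80, 8.69 and 6.58 in the high tumours and 5.40, 6.10, 6.28 and 4.26 in the low tumours, a difference of 2.64 ± 0.71. With the high group scored on median-scaled signals, S100a14 was the single gene to pass, at 3.34 with a limma adjusted p of 0.0219. That setting puts STAT5ca_123 in place of STAT5Δ750_165, the lowest S100a14 array of the high group. Leaving out STAT5Δ750_165 alone gave a difference of 3.16, so the pass cannot be told apart from that exchange. Krtdap, a keratinocyte differentiation protein, read 6.28, 8.32, 6.28 and 3.31 in the high tumours and 3.64, 3.81, 4.45 and 3.19 in the low tumours, with STAT5Δ750_165 among the low values. Sprr1a, a cornified envelope precursor, differed by 2.51 ± 1.27, from 10.01 in STAT5Δ750_174 to 4.36 in STAT5Δ750_165 within the high group. Ly6d, a surface protein of keratinocytes and B cells, differed by 2.19 ± 0.96. Of the skin markers, Krt1 had deposited signals of 11.2, 126.8, 207 and 1.1 in the high tumours and 9.6 to 11.4 in the low tumours. Krt10 had 43.5, 520.6, 557.9 and 62.9 in the high tumours and 72.9 to 158.5 in the low tumours. STAT5Δ750_160 and STAT5Δ750_165 thus lay below every low tumour for Krt10. Lor ran from 12.4 to 47 in the high and from 10.8 to 30.1 in the low tumours, and Flg, at 21.4 or less, was not tested.

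Kallikreins, serine proteases of stratified epithelium, differed in both directions. Klk7 read 8.57, 9.0, 7.10 and 3.73 in the high tumours and 3.32, 4.16, 4.91 and 3.09 in the low tumours, a difference of 3.23 ± 0.98. Klk6 differed by 2.19 ± 1.19 and Klk8 by 0.81 ± 0.67. Klk11 and Klk10 had differences below 0, at -1.86 ± 1.16 and -0.58 ± 1.32. Klk7 was above the filter signal on 3 arrays, all high tumours, and so was tested only because it is high there. Krtdap, Sprr1a, Col17a1, Krt25, Tchh, Cdh3, Snai1, Twist1, Mmp7, Wif1 and Fosl1 likewise passed the filter only through the high tumours. STAT5Δ750_165 had the lowest Klk7 level of the high group, within the range of the low tumours.

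STAT5Δ750_174 was set apart by hair follicle genes. Only 2 of 17 listed hair genes passed the filter. Krt25, an inner root sheath keratin, read 3.58, 10.34, 6.03 and 3.73 in the high tumours and 3.76, 4.13, 4.24 and 4.12 in the low tumours. Tchh, trichohyalin, read 4.59, 10.75, 5.80 and 3.79 in the high tumours and 3.41, 4.36, 5.05 and 3.12 in the low tumours. Their median difference was 2.05 with all arrays and 0.56 without STAT5Δ750_174. The summed scaled signal of the 2 genes was 11.1 to 3000 in the high tumours and 8.19 to 36.0 in the low tumours, and its part in the squamous and kallikrein levels of that array was not tested. Without STAT5Δ750_174, the squamous median was 0.85 and the kallikrein median 0.44. Krt6b kept a difference of 4.38 without that array, and Trp63 one of 1.98.

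Desmosome and junction genes, which join epithelial cells to each other, had a median of 0.18 over 12 tested, from 0.06 without STAT5Δ750_174 to 0.43 without STAT5Δ750_165. Pkp1, plakophilin 1 of squamous desmosomes, read 9.81, 9.22, 9.92 and 7.33 in the high tumours and 7.65, 7.38, 7.10 and 5.53 in the low tumours, a difference of 2.15 ± 0.79. Cdh3, the P-cadherin of basal cells, read 8.37, 5.78, 3.61 and 6.56 in the high tumours and 3.47, 3.73, 4.96 and 4.86 in the low tumours, a difference of 1.82 ± 0.80. The Cdh3 level of STAT5ca_159 lay within the range of the low tumours. Dsp, desmoplakin, differed by 1.76 ± 0.81, and Pkp2, the plakophilin of simple epithelia, by -0.47 ± 0.38.

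Luminal genes were high in both groups. The 20 luminal genes tested had a median difference of -0.05, with 1 higher and 1 lower at an unadjusted p under 0.05. Krt18, the partner of keratin 8, read 12.49, 12.39, 12.48 and 11.91 in the high tumours and 12.26, 12.15, 12.20 and 12.45 in the low tumours, a difference of 0.05 ± 0.19. Cdh1, E-cadherin, differed by 0.18 ± 0.24, and Epcam had deposited signals of 2937.4 to 4511.2 in the high and 3523.5 to 4957.6 in the low tumours. Krt7, a keratin of ducts, read 11.80, 10.47, 9.90 and 10.15 in the high tumours and 9.56, 9.08, 8.91 and 9.32 in the low tumours without overlap, a difference of 1.37 ± 0.58. Cd24a, a surface protein high on luminal cells, read 11.97, 11.67, 12.07 and 12.07 in the high tumours and 12.14, 12.44, 12.64 and 12.40 in the low tumours, again without overlap, a difference of -0.46 ± 0.18. Krt19 read 10.38, 9.85, 12.28 and 9.23 in the high tumours and 12.42, 11.80, 11.39 and 5.65 in the low tumours, a difference of 0.12 ± 1.81. Its low value in STAT5ca_169, the tumour with the lowest score, was matched by 5.10 in the middle tumour STAT5ca_123. Among genes of hormone sensing cells, Esr1 and Pgr were not tested, with deposited signals of at most 18.7 and 15.6. The 5 tested of 13 listed had a median of 0.58, and 0.13 without STAT5Δ750_160.

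Genes of luminal progenitors and of milk secretion had medians below 0. Over 12 progenitor genes the median was -0.51, with 1 higher and 2 lower at an unadjusted p under 0.05. It was 0.11 without STAT5Δ750_165. Elf5, the transcription factor of alveolar progenitors, read 9.04, 10.96, 11.73 and 10.59 in the high tumours and 11.49, 11.63, 12.20 and 9.30 in the low tumours, a difference of -0.58 ± 0.63. The Elf5 difference was -1.72 within STAT5Δ750 tumours and 1.33 within STAT5ca tumours, which hold 1 high tumour. Kit, a receptor kinase of progenitors, differed by -0.55 ± 0.35, and Plet1, a surface protein, by -1.24 ± 0.5. Cxcl1, a neutrophil chemokine, was instead above, at 1.98 ± 0.76.

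The 19 milk genes had a median of -0.63, and 3 were lower at an unadjusted p under 0.05. Csn3, kappa casein, read 12.32, 12.84, 11.70 and 11.505 in the high tumours and 12.47, 12.98, 13.32 and 13.003 in the low tumours, a difference of -0.86 ± 0.29. Csn2, beta casein, read 12.07, 12.49, 12.47 and 12.20 in the high tumours and 12.44, 12.93, 13.10 and 9.85 in the low tumours, a difference of 0.23 ± 0.56. Wap, whey acidic protein, ran from 4.61 to 10.61 in the high tumours and from 4.95 to 13.11 in the low tumours, with a difference of -1.90 ± 1.60, or -0.34 without STAT5Δ750_178. Muc15, a milk fat globule mucin, differed by -2.02 ± 0.77. Casein RNA was thus high on the scale in both groups, with Csn2 lowest in STAT5ca_169, without which its difference was -0.52. The milk median was -0.21 without STAT5Δ750_178 and -0.99 without STAT5ca_171.

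The 17 STAT5 targets and prolactin pathway genes had a median of -0.24, with 1 higher at an unadjusted p under 0.05, and -0.06 without STAT5ca_169 or without STAT5Δ750_160. Stat5a read 7.27, 7.91, 8.39 and 7.59 in the high tumours and 6.71, 7.32, 9.18 and 8.76 in the low tumours, a difference of -0.20 ± 0.63. Stat5b differed by -0.5 ± 0.40. Whether these probe sets read the transgenes as well as the mouse genes is not stated. Socs3, a cytokine-induced inhibitor of STAT signalling, read 10.51, 8.40, 7.92 and 9.94 in the high tumours and 7.92, 8.14, 7.80 and 6.66 in the low tumours, a difference of 1.56 ± 0.57. Pim1, a kinase induced by STAT5, differed by -0.76 ± 0.41.

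The genes of a rule that takes 12 in each direction, by smallest unadjusted p among those at least 1 apart on the log2 scale, led the comparison without passing. Among the 12 higher genes, 10 had no overlap between groups, against 1.3% of all genes in that direction. The limma p-values were 9.88e-05 to 0.00287, and in 10 the middle mean lay between the others. The rule picks genes that stand apart in this same comparison, so these counts follow largely from the choice. Of these 12 genes, 6 (Krt6b and Trp63 among them) had no low tumour above the signal of 35.4 on which genes were filtered. Krt6b, Hs6st2, Gzme and Krtap12-1 were above it on too few other arrays to be tested without the high tumours. Mmp10, the protease stromelysin 2, read 5.68, 5.52, 5.75 and 6.05 in the high tumours and 3.51, 4.30, 4.06 and 4.05 in the low tumours, a difference of 1.77 ± 0.31. P4ha1, the collagen prolyl hydroxylase subunit, read 8.77, 7.97, 8.36 and 8.58 in the high tumours and 7.47, 7.25, 7.06 and 7.53 in the low tumours, a difference of 1.09 ± 0.21. These 2 had little spread within a group, and every high array lay above every low array. Hs6st2, a heparan sulphate sulphotransferase, differed by 1.48 ± 0.31, Tmem267, a membrane protein, by 1.54 ± 0.33, and Krtap12-1, a hair keratin-associated protein, by 1.14 ± 0.31.

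Met, the receptor of hepatocyte growth factor, had a wide difference for a leading gene. It read 11.70, 10.73, 7.51 and 12.05 in the high tumours and 6.75, 6.53, 8.92 and 6.18 in the low tumours, a difference of 3.40 ± 0.91, and 4.52 to 6.09 in the middle tumours. The 3 STAT5Δ750 high tumours stood above every other array, while STAT5ca_159 lay below the low tumour STAT5Δ750_178. Wnt7b, a Wnt ligand, read 9.29, 7.5, 6.60 and 8.31 in the high tumours and 5.43, 6.27, 6.21 and 5.42 in the low tumours, a difference of 2.09 ± 0.53. Fhl2, a LIM-domain cofactor whose promoter is shown above, read 9.55, 7.61, 7.25 and 8.36 in the high tumours and 6.57, 6.03, 6.31 and 5.69 in the low tumours, a difference of 2.04 ± 0.47. Both genes had groups without overlap, with STAT5Δ750_160 and STAT5Δ750_165 among their highest arrays. Gzme, a granzyme, differed by 2.40 ± 0.60, and may share signal with the similar granzyme genes beside it. Wwp2, a ubiquitin ligase, differed by 1.28 ± 0.33 with overlap through STAT5Δ750_160.

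**Figure D3:**
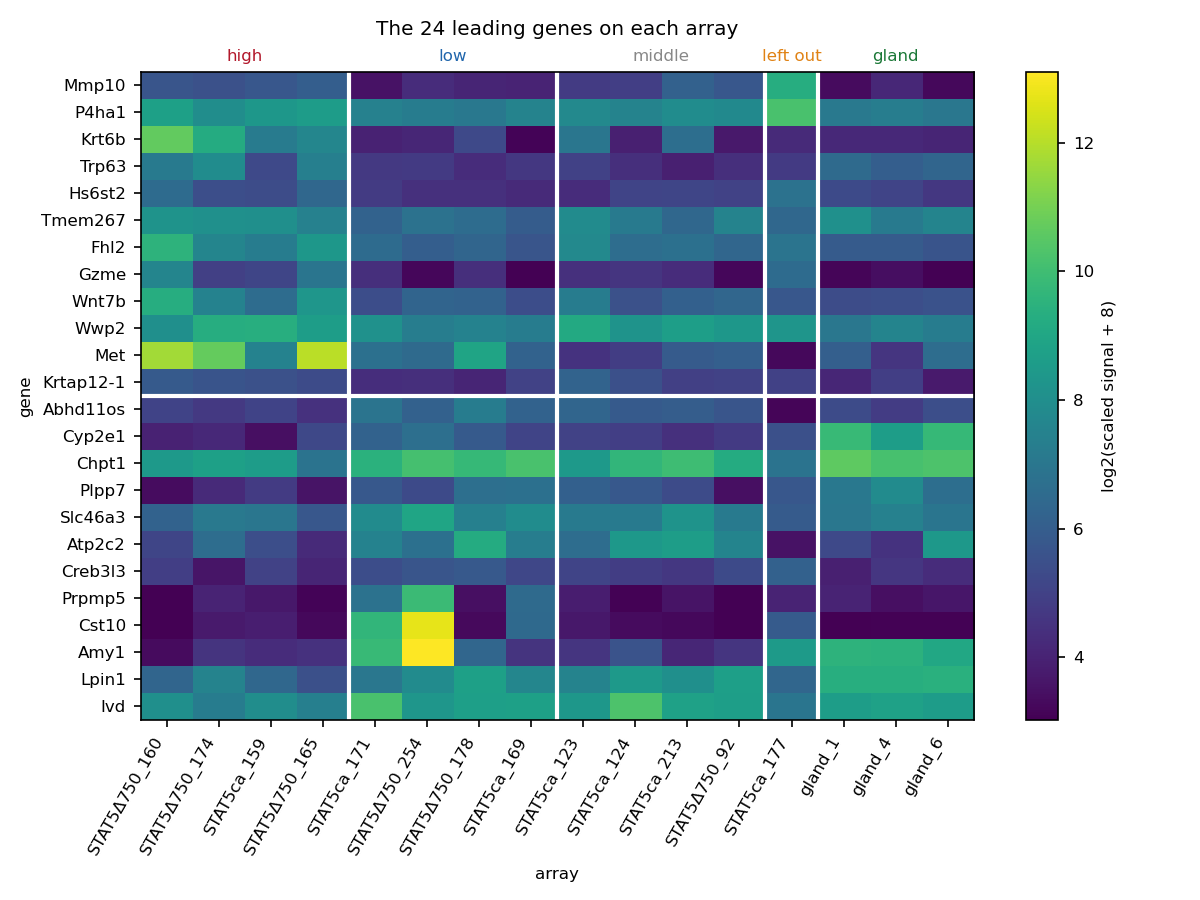
Level of the 24 leading genes (rows, the 12 higher above the 12 lower) on the 16 arrays (columns, by group), as log2 of the scaled signal plus 8 in colour. The upper rows are brighter in the 4 high tumours, with Met dim in STAT5ca_159, and Prpmp5, Cst10 and Amy1 are bright in few low tumours.

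On the lower side, 8 of the 12 leading genes had no overlap, against 0.767% of all genes in that direction, a count that again follows largely from the choice. Their limma p-values were 3.08e-05 to 0.015, and 7 had no high tumour above the filter signal. Creb3l3, Prpmp5 and Cst10 were above it on too few other arrays to be tested without the low tumours. Abhd11os, a transcript named for its place on the strand opposite Abhd11, had the smallest p of all genes. It read 5.04, 4.71, 5.05 and 4.49 in the high tumours and 6.91, 6.15, 7.26 and 6.20 in the low tumours, a difference of -1.81 ± 0.28 (limma adjusted p = 0.285). Atp2c2, a calcium and manganese pump of the secretory pathway, read 5.12, 6.63, 5.44 and 4.22 in the high tumours and 7.48, 6.74, 9.23 and 7.31 in the low tumours, a difference of -2.34 ± 0.63. Chpt1, which makes phosphatidylcholine, read 8.47, 8.74, 8.60 and 6.88 in the high tumours and 9.47, 10.12, 9.79 and 10.22 in the low tumours, a difference of -1.73 ± 0.43. In these 3 genes all high tumours lay below all low tumours, and STAT5Δ750_165 was the lowest. Plpp7, of the phospholipid phosphatase family, differed by -2.17 ± 0.57, and Slc46a3, a lysosomal transporter, by -1.53 ± 0.40. Ivd, of leucine breakdown, differed by -1.34 ± 0.47, and Creb3l3, a transcription factor of lipid metabolism in liver, by -1.13 ± 0.32. Cyp2e1, a cytochrome P450, and Lpin1, a phosphatidate phosphatase, differed by -1.75 ± 0.40 and -1.40 ± 0.46 with overlapping groups.

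Among the leading lower genes the widest differences were those of exocrine gland genes, and they rested on a few arrays. Amy1, salivary amylase, read 3.31, 4.53, 4.32 and 4.47 in the high tumours and 9.80, 13.10, 6.36 and 4.54 in the low tumours, a difference of -4.29 ± 1.38. The normal glands held Amy1 too, at deposited signals of 639.3 to 805.9. Beside them STAT5ca_171 had 937.1, STAT5Δ750_254 9604.1 and STAT5Δ750_178 76.3. Cst10, a cystatin, read 3.04, 3.75, 3.88 and 3.25 in the high tumours and 9.66, 12.73, 3.30 and 6.46 in the low tumours, a difference of -4.56 ± 1.46. Bpifa2, a secreted salivary protein, read 4.09, 3.69, 4.05 and 4.68 in the high tumours and 12.16, 12.86, 4.43 and 4.18 in the low tumours, a difference of -4.28 ± 1.70. STAT5Δ750_254 and STAT5ca_171 carried these 3 genes at high levels, while STAT5Δ750_178 was near the floor for Cst10 and Bpifa2. Bpifa2, like Cst10, was above the filter signal on too few arrays to be tested without the low tumours. Prpmp5, a proline-rich protein, was above the filter signal on 3 arrays, all low tumours, so it was tested only because it is high there; it read 3.04, 4.04, 3.67 and 3.12 in the high tumours and 6.82, 9.88, 3.45 and 6.52 in the low tumours. Over the 14 exocrine genes tested of 20 listed, the median was -2.17, with 6 lower at an unadjusted p under 0.05 and 1, Amy1, without overlap. That separation, 4.53 against 4.54 near the floor, depends on the scaling, since the deposited signals overlap at 15.5 in the highest high tumour and 15.0 in the lowest low tumour. Without STAT5Δ750_254 the median was -1.19, and the differences were -2.74 for Amy1 and -2.99 for Cst10. The summed scaled signal of the list was 1846 to 10678 in the high tumours and 2401 to 59544 in the low tumours. Aqp5, a water channel of secretory cells, had deposited signals of 3501.7, 4000.3, 375.2 and 3010.6 in the high tumours and 840.2, 828.1, 78.3 and 5898.4 in the low tumours. This exocrine gene was thus higher in 3 of 4 high tumours than in 3 of 4 low tumours, unlike the salivary genes.

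**Figure D4:**
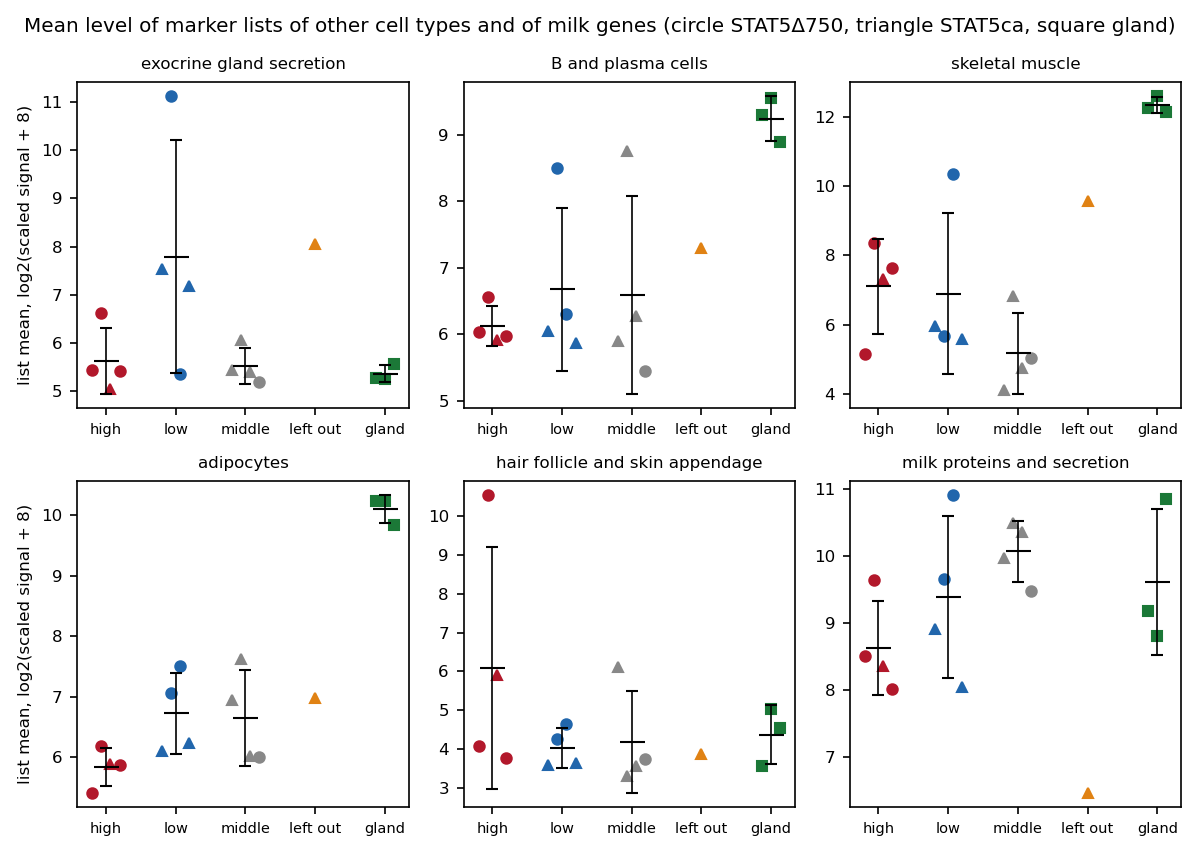
Mean level of 6 gene lists on each array, as the mean of log2 of the scaled signal plus 8 (vertical axes), by group; points are arrays and bars the mean ± SD. STAT5Δ750_254 stands at 11.12 for exocrine genes and 8.49 for B cell genes, STAT5Δ750_178 at 10.36 for muscle, and STAT5Δ750_174 at 10.54 for hair follicle genes.

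Matrix proteases had a median of 0.89 over 16 tested, with 4 higher at an unadjusted p under 0.05 and 2 without overlap, Mmp10 and Mmp13. Mmp13, collagenase 3, read 10.29, 8.45, 8.83 and 8.97 in the high tumours and 7.46, 6.73, 5.54 and 4.66 in the low tumours, a difference of 3.04 ± 0.99. Its middle tumours ran from 4.96 to 10.04, across both groups. Plat and Plaur, of the plasminogen system, differed by 1.46 ± 0.64 and 1.16 ± 0.53, and Mmp7, matrilysin, by 1.28 ± 0.58.

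Mesenchymal transition genes had a median of 0.72 over 16, with 4 higher at an unadjusted p under 0.05 and none without overlap. Snai1, a repressor of E-cadherin, read 6.80, 5.21, 3.75 and 6.58 in the high tumours and 4.23, 4.22, 4.27 and 4.06 in the low tumours, a difference of 1.39 ± 0.54. Twist1 differed by 1.51 ± 0.66 and Prrx1, a factor of mesenchyme, by 0.86 ± 0.37. Within STAT5Δ750 tumours the differences were 1.95 for Snai1, 2.43 for Twist1 and 0.68 for Prrx1. Within STAT5ca tumours, with 1 high tumour, they were -0.39, -0.72 and 0.73. Vim, vimentin, read 11.89, 10.67, 10.97 and 11.59 in the high tumours and 11.37, 11.49, 10.15 and 10.84 in the low tumours, a difference of 0.32 ± 0.40. Fibroblast and collagen genes, 19 tested, had a median of 0.60 and 2 at an unadjusted p under 0.05, Col6a3 with 1.12 ± 0.41 and Col5a2 with 0.90 ± 0.41. Of the 19, 16 had a difference above 0 and 3 below. The fibroblast marker Dcn went the other way, with deposited signals of 560, 520.1, 742.1 and 496.9 in the high tumours. Its low tumours had 1348.5, 1574.8, 1241.7 and 549.1. Col3a1 overlapped, at 2188.6 to 4106.8 in the high and 1543.5 to 4866.5 in the low tumours. The summed fibroblast signal was 11335 to 26436 in the high tumours and 6628 to 22880 in the low tumours, and its part in the mesenchymal and matrix levels was not tested. Without STAT5Δ750_160 the fibroblast median was 0.27 and the mesenchymal one 0.46, and without STAT5ca_169 they were 0.28 and 0.40.

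Wnt targets and antagonists had a median of 0.67 over 14, with 3 higher at an unadjusted p under 0.05 and 1 without overlap. Apcdd1, a membrane inhibitor of Wnt signalling, read 6.87, 8.03, 7.66 and 6.80 in the high tumours and 5.11, 5.0, 5.86 and 4.74 in the low tumours, a difference of 2.16 ± 0.62. Wif1, a secreted Wnt inhibitor, read 6.77, 7.93, 3.08 and 8.85 in the high tumours and 3.58, 4.24, 3.83 and 3.45 in the low tumours, a difference of 2.88 ± 1.0. Wif1 was thus high in the 3 STAT5Δ750 tumours and at the floor in STAT5ca_159. Fzd7, a Wnt receptor of basal cells, differed by 0.67 ± 0.31. Notch pathway genes, 16 tested, had a median of 0.00, with Notch3 at -0.66 ± 0.53. The 7 EGF receptor family genes tested had a median of -0.18, with 1 higher and 1 lower at an unadjusted p under 0.05. Among the ligands, Hbegf differed by 1.55 ± 0.68 and Tgfa by 1.12 ± 0.65, while Egf differed by -1.69 ± 0.70. Of the receptors, Egfr differed by -0.28 ± 0.44 and Erbb2 by -0.74 ± 0.76, which was 0.23 without STAT5ca_169.

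Immediate early and AP-1 genes had a median of 0.24 over 17, with 3 higher at an unadjusted p under 0.05 and 2 without overlap. Egr2, a zinc finger factor, read 7.43, 6.71, 8.03 and 6.78 in the high tumours and 5.67, 6.24, 5.16 and 5.61 in the low tumours, a difference of 1.57 ± 0.45. Fosl1, the AP-1 subunit Fra-1, read 7.61, 4.87, 4.31 and 6.13 in the high tumours and 3.62, 4.13, 4.19 and 3.60 in the low tumours, a difference of 1.85 ± 0.71. STAT5ca_159 was the highest high tumour for Egr2 but the lowest for Fosl1. Junb differed by 0.61 ± 0.27, while Jund differed by -0.46 ± 0.21.

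Adipocyte genes lay below 0, with a median of -0.61 over 17, 4 lower at an unadjusted p under 0.05 and 3 without overlap. Adipoq, the fat hormone adiponectin, read 3.96, 5.47, 6.06 and 6.63 in the high tumours and 7.60, 8.27, 8.68 and 6.87 in the low tumours, a difference of -2.32 ± 0.92. Cidec, a lipid droplet protein, differed by -1.32 ± 0.48, and Pck1, of glyceroneogenesis, by -1.18 ± 0.5. Cd36, a fatty acid transporter that alveolar and endothelial cells also make, differed by -2.78 ± 0.98. The glands had an Adipoq mean of 12.05, far above all tumours. The summed adipocyte signal was 2038 to 3632 in the high tumours and 2771 to 14915 in the low tumours. Fatty acid synthesis genes, 17 of 18 with a difference below 0, had a median of -0.42, and -0.17 without STAT5Δ750_178. Fasn, fatty acid synthase, read 9.36, 9.43, 9.43 and 8.93 in the high tumours and 9.91, 9.23, 11.46 and 9.64 in the low tumours, a difference of -0.77 ± 0.47. Which cells carry these lipid genes, fat or secretory epithelium, was not tested.

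Cell division genes overlapped between the groups. Mki67 read 9.17, 9.90, 10.51 and 9.81 in the high tumours and 10.03, 9.56, 10.28 and 9.91 in the low tumours, a difference of -0.10 ± 0.31. The 23 mitosis genes had a median of -0.06 with 0 at an unadjusted p under 0.05, and the 25 DNA replication genes a median of 0.22 with 1. Adm, adrenomedullin, a hypoxia-induced peptide, read 8.39, 8.40, 6.90 and 8.31 in the high tumours and 5.96, 5.80, 7.03 and 6.84 in the low tumours, a difference of 1.59 ± 0.48, and the 18 glycolysis and hypoxia genes had a median of 0.21. The 19 oxidative phosphorylation genes had a median of -0.22 and the 11 ribosomal protein genes one of -0.22, with all 11 below 0. Interferon response genes had a median of 0.68 but none at an unadjusted p under 0.05, and the median was 0.04 without STAT5Δ750_178, 0.18 without STAT5Δ750_160 and 1.32 without STAT5ca_169. STAT5Δ750_160 had the highest Mx1 level, an interferon-induced GTPase, at 9.54 in the high tumours, beside 6.08, 5.76, 5.27 and 7.64 in the low tumours. The Mx1 difference was 1.41 with all arrays and 0.76 without STAT5Δ750_160.

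The medians of the lymphocyte lists lay close to 0 without STAT5Δ750_254. B cell genes had a median of -0.80 with all arrays and -0.03 without STAT5Δ750_254, and T cell genes -0.51 and 0.03. The B cell defining gene Ms4a1 had deposited signals of 6.5 to 17.3 in the high tumours and 5.8 to 305.5 in the low tumours, the last in 1 array. Sdc1, counted in the B cell list but also an epithelial proteoglycan, read 11.02, 9.69, 10.02 and 9.90 in the high tumours and 9.5, 8.75, 9.18 and 7.96 in the low tumours without overlap, a difference of 1.31 ± 0.5. Macrophage genes had a median of 0.09, and Csf1r, the receptor that defines them, ran from 672.6 to 1718 in the high and 693.3 to 1670.5 in the low tumours. Endothelial genes had a median of -0.01. Muscle genes had a median of 0.09 with all arrays and 1.26 without STAT5Δ750_178, and their summed signal was 562 to 7575 in the high tumours and 918 to 29199 in the low tumours. Muscle genes are thus present on arrays of both groups, at levels below the glands.

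**Figure D5:**
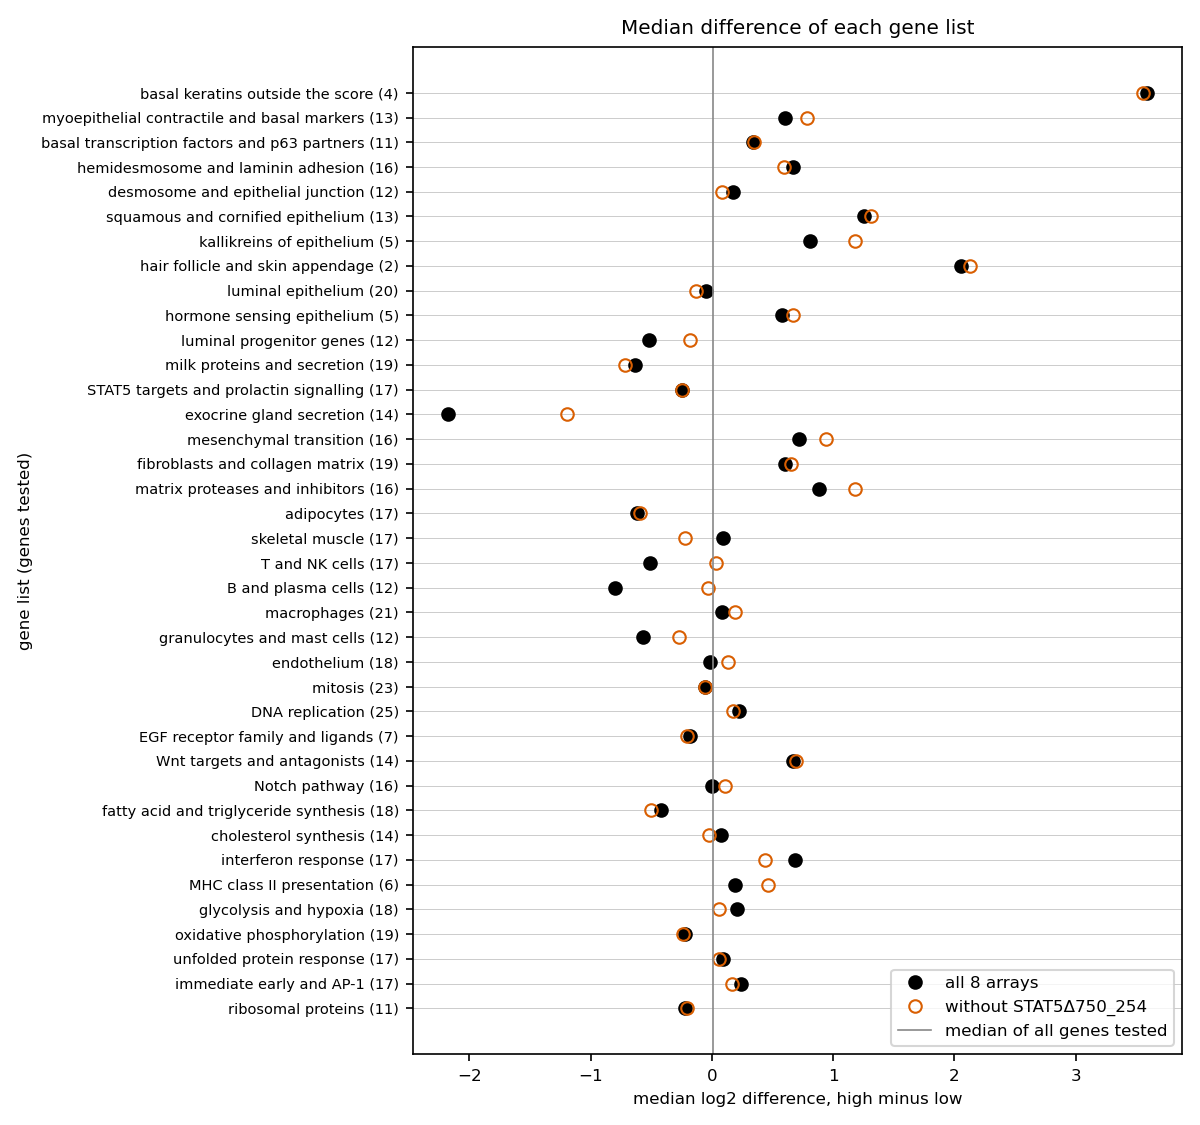
Median difference of each of the 38 gene lists, high minus low on the log2 scale (horizontal axis), with the number of genes tested in brackets; filled points use all 8 arrays and open points leave out STAT5Δ750_254. The list labelled basal keratins outside the score, tested through Krt6a, Krt6b, Krt16 and Krt23, stands at 3.59. The 2 hair follicle genes stand at 2.05 (0.56 without STAT5Δ750_174) and squamous genes at 1.25. Exocrine genes stand at -2.17 or, without STAT5Δ750_254, -1.19. Some members of each of these lists were tested only because they are high in 1 of the groups.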

How the data were processed

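Total RNA from tumours and glands was measured on Affymetrix Mouse Genome 430A 2.0 arrays, 1 array a sample. The deposited values are the authors' MAS5 signals per the submitters' processing notes, an intensity on a linear scale for each of 22690 probe sets, with no version given.

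Arrays were scaled to a common median of 74.0 and used as log2(signal + 8). Probe sets above 35.4, the 40th percentile of all signals, on at least 3 of 16 arrays were kept, and the one with the highest mean was used for each gene with 1 symbol, which left 9261 genes. Krt5, Krt14, Krt17 and Krt8, used by the grouping, were removed, leaving 9257. The 12 tumour arrays were fitted with limma 3.58.1 (R 4.3.3) in 3 score groups, with 9 residual and 2.93 prior degrees of freedom, and high was compared with low, two-sided, with Benjamini-Hochberg adjustment at 0.05. The procedure was tested on simulated data.

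Named genes are the 12 leading ones in each direction, up to 5 of each list with the smallest p, and 18 fixed genes such as Trp63, Acta2 and Csn2. Members and the 38 lists were chosen with earlier results of these data known. A few genes named for marker checks were chosen after their values were seen. Symbols come from the platform annotation. Alternatives covered scaling, offset, filter, probe sets, covariates, test, membership and left-out arrays. Figures used matplotlib 3.10.9 (Python 3.11.15).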

Additional observations from a re-analysis of the deposited data

Results flagged for a closer look

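Of 128 sets of 4 arrays examined for a lone extreme value, 9 held an array whose gap to its nearest neighbour passed Dixon's limit at the 95% level, a limit that chance passes in about 5% of sets. STAT5Δ750_178 accounted for 3 of them among the low tumours: the muscle list mean was 10.36, against 5.58 to 5.96 in the others, the fatty acid synthesis mean was 9.89, against 8.92 to 9.04, and the mean of basal transcription factors was 6.77, against 7.05 to 7.08. STAT5Δ750_254 had a B cell list mean of 8.49, against 5.87 to 6.30 in the other low tumours. STAT5ca_169, the tumour with the lowest keratin score, had a squamous list mean of 5.16, against 6.25 to 6.35.

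Among the high tumours, STAT5Δ750_165 was low for Chpt1, the phosphatidylcholine enzyme, at 6.88, against 8.47 to 8.74, and for the desmosome list, at 7.61, against 8.72 to 8.87. STAT5Δ750_160 was low for Amy1, at 3.31, against 4.32 to 4.53, and high for the Wnt list, at 6.88, against 6.47 to 6.53.

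The tumour left out for its low Krt8, STAT5ca_177, was in no comparison, and 4 of the 24 leading genes read more than 2 log2 units above every gland there. Mmp10 read 9.32, against 3.26 to 4.16 in the glands, and P4ha1 10.23, against 7.03 to 7.29. Gzme, another leading higher gene, read 6.56, against 3.06 to 3.39. Cst10, a leading lower gene, read 5.91, against 3.03 to 3.08.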

How the results depend on the processing

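No gene passed an adjusted p of 0.05 by limma with all 12 arrays, and this count of 0 held in each alternative but 2. With membership scored on median-scaled signals, which exchanges STAT5Δ750_165 for STAT5ca_123, 1 gene of all and 1 of the lists passed, S100a14. The counts of lower genes were then 62 at an unadjusted p under 0.05 and 28 without overlap. Without STAT5ca_159, which left a high group of STAT5Δ750 tumours alone, the 1 gene was Trp63. Leaving out each array in turn gave 0 to 1 passing genes, both over all genes and in the lists. At an unadjusted p under 0.05 it gave 97 higher genes (without STAT5Δ750_160) to 407 (without STAT5ca_159), and 55 lower genes (without STAT5Δ750_165) to 283 (without STAT5Δ750_174). Higher genes without overlap were 175 to 420 and lower ones 106 to 318, more than with 4 arrays a group because groups of 3 overlap less by construction. The difference of the actin ratio ran from -0.255 to 0.227. With no filter, 181 genes lay above and 109 below without overlap; without STAT5ca_124 and STAT5Δ750_254 these were 221 and 160. With the score as a continuous predictor 374 genes were higher. The 24 leading genes kept their sign in each alternative that tested them (22 to 24 per gene, fewer under stricter filters), as did 189 of the 208 named genes and 25 of 38 lists. The leading genes were chosen by p and size on largely the same arrays, so a change of sign was unlikely from the start. No paired analysis was possible because the groups share no replicate numbers in the labels. Signals near the offset of 8 carry little information on change.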

Other observations

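Genes that set single tumours apart were picked here after their values were seen. Erbb2, the receptor kinase of many breast tumours, read 11.02 in STAT5ca_169, the tumour with the lowest basal keratin score, and 6.70 to 7.80 in the other 7 tumours of both groups. The same tumour had low levels of Krt19 (5.65) and Csn2 (9.85) and the highest Gzmb level of the 8, a cytotoxic granule protease, at 7.08. Marco, a scavenger receptor of some macrophages, read 8.36 in STAT5Δ750_254 and at most 3.28 in the other 7, and 8.18 in the middle tumour STAT5ca_124.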
